A study of Mus musculus with 28 samples.

Results

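Of the 14711 genes in the deposited tables, 5 are described here: Sptan1, Ppp1r9a, Limch1, Actn2 and Mmp2. They were picked by name because earlier results of these data showed very high values for them in the RNA bound to the anti-HA antibody in the parvalbumin (PV) line. Their level in that fraction against its input is therefore given as a description, with no test. Sptan1, Ppp1r9a, Limch1 and Actn2 encode proteins of the actin and spectrin cytoskeleton. Mmp2 does not: it encodes a secreted matrix metalloproteinase.

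The samples came from the CA1 region of the hippocampus of C57BL/6 mice aged 3 to 4 weeks. All mice were heterozygous for LSL-Rpl22-HA, a ribosomal protein gene that gains an HA tag where Cre has acted, and carried 1 copy of either CaMK2a-Cre, which acts mainly in excitatory neurons of the forebrain, or PV-Cre, which acts in parvalbumin neurons. Mice received PBS or kainic acid, which activates kainate-type glutamate receptors and causes seizures. Kainic acid tissue was taken 6 h after injection. The labels give the same 6 h for PBS, while the column names of the tables give 0 h, so the time after PBS is uncertain. Each lysate gave an input library and an immunoprecipitate (IP) library of RNA held by 12 µg of anti-HA antibody. Line, treatment and fraction make 8 groups. Each CaMK2a group holds 3 libraries, each made from 20 ng of RNA of 4 mice, and each PV group holds 4, each made from 2.5 ng of RNA of 9 to 10 mice. Line, RNA amount and pool size therefore vary together and cannot be told apart between lines.

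Spectrin forms tetramers of alpha and beta chains that make a lattice under the cell membrane and, in axons, a periodic scaffold between actin rings. Sptan1 encodes the non-erythroid alpha chain and pairs with beta chains such as the one encoded by Sptbn1. Ppp1r9a encodes neurabin, which binds actin filaments and targets protein phosphatase 1 to dendritic spines. Limch1 encodes a protein with calponin homology and LIM domains that binds and activates non-muscle myosin II. Actn2 encodes alpha-actinin 2, which crosslinks actin filaments in muscle Z discs and in spines. Mmp2 encodes gelatinase A, which is held in check by tissue inhibitors such as Timp2 and is activated at the cell surface by Mmp14.

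In GRCm38 the genes lie on 5 chromosomes: Sptan1 at chr2:29965560-30031451 on the plus strand, Ppp1r9a at chr6:4902736-5165661 on the plus strand, Limch1 at chr5:66745840-67057159 on the plus strand, Actn2 at chr13:12269426-12340732 on the minus strand and Mmp2 at chr8:92827292-92853420 on the plus strand. The counts cover their exons, and no exon of any of the 5 overlaps an exon of another gene on either strand in GENCODE M21. The exon lengths listed with the counts differ widely. Ppp1r9a has 19977 bases in 27 exons, Limch1 9448 in 35, Sptan1 8132 in 59, Mmp2 3203 in 14 and Actn2 2998 in 21, where the median over all genes is 3124 bases. Ppp1r9a, Limch1 and Sptan1 are thus among the longest transcripts (percentiles 99.9, 96.1 and 93.2) while Actn2 and Mmp2 are near the middle (47.8 and 51.5). Their GC content runs from 45.6% in Ppp1r9a to 55.3% in Mmp2.

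The upstream sequences of 3 of the 4 members whose levels moved together are shown because the choice of members did not use sequence. They come from RefSeq on GRCm38.p6, which held a window for 4 of the 5 genes, and are written 5′ to 3′ on the strand of the gene. Sptan1 is shown at chr2:29965310-29965559, Limch1 at chr5:66745639-66745826 and Actn2 at chr13:12340761-12340982. Capitals mark matches, on either strand, to the motifs CACGTG (E-box), GGGCGG (GC box), TGANTCA (AP-1), MEF2 and CArG.
Sptan1: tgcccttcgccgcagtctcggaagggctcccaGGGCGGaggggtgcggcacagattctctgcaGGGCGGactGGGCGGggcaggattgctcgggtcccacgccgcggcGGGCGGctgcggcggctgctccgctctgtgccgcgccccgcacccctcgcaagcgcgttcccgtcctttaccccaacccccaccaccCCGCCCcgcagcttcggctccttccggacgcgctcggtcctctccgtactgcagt
Limch1: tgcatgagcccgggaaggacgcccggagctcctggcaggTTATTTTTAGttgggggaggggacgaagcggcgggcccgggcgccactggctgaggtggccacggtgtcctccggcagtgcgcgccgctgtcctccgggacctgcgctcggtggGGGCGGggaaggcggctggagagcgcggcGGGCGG
Actn2: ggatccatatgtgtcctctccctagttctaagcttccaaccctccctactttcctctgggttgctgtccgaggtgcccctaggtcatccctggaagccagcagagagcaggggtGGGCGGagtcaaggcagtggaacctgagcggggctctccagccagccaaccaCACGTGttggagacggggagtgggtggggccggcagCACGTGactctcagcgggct
No single motif but the GC box was found in all of them. Sptan1 held 5 GC boxes, Limch1 3 in its whole window with 1 MEF2 match, and Actn2 2 E-boxes and 1 GC box. The Ppp1r9a window held 1 GC box. Over 32851 RefSeq windows of the same kind, 32.7% held a GC box, 6.02% an E-box and 2.92% a MEF2 match, so these matches are a description of the letters and no more.

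The 28 libraries held 6061405 to 15847462 counted reads. The labelled cell types were visible in the IP. In the PV line after PBS, 10 of 11 measured PV interneuron markers passed the test as higher in the IP than in input (edgeR quasi-likelihood test, Benjamini-Hochberg adjusted p under 0.05, here called) and all 10 measured CA1 pyramidal markers as lower, while in the CaMK2a line all 11 PV markers were lower in the IP. Over all genes, 10.6% were called higher and 7.98% lower in the PV line after PBS, and 31.6% lower in the CaMK2a line after PBS. After kainic acid all 11 PV markers were called higher in the PV IP, but only 2 of the 10 pyramidal markers lower. The median log2 fold change of the pyramidal markers was then -0.51, against -0.87 after PBS. Over all genes, 6.85% were called higher and 4.11% lower in the PV line after kainic acid. PV replicate 4 stood apart from the other PV replicates in input. It held 1194 and 1071 CPM of Slc17a7, the vesicular glutamate transporter, after PBS and kainic acid there. The other 6 PV inputs held 487.3 to 592.5 CPM. The CaMK2a inputs held 1023 to 1294 CPM, so replicate 4 lay within their range and the other PV inputs below it. Which PV replicates are typical was not tested. Results that rest on replicate 4 are given with and without it. CPM are counts scaled to library size with TMM factors over all 28 libraries. In these bulk samples fewer cells of a type and less RNA per cell cannot be told apart.

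Sptan1 had the highest fitted log2 fold change of IP over input in the PV line after PBS. The 4 IP libraries held 23972, 22001, 21349 and 9703 CPM of Sptan1 and the 4 inputs 525, 606, 599 and 622 CPM. The groups did not overlap, and the IP of replicate 4 was the lowest of the IP libraries. The fitted difference was 5.06 ± 0.25 (log2 fold change ± SE), or 33.3-fold, rank 1 of 11204 genes. Without replicate 4 it was 5.30 ± 0.08.

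Ppp1r9a followed the same pattern. Its IP libraries held 7950, 11527, 11840 and 4974 CPM and its inputs 212, 385, 367 and 269 CPM. IP and input did not overlap, and replicate 4 was again the lowest IP. The difference was 4.91 ± 0.29 on the log2 scale, or 30.0-fold, rank 3. Without replicate 4 it was 5.04 ± 0.23.

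Limch1 was lower in level but also far above input. The IP libraries held 1554, 1137, 1316 and 541 CPM and the inputs 53.3, 65.3, 59.8 and 52.7 CPM. The difference was 4.33 ± 0.27 on the log2 scale, or 20.0-fold, rank 7, and 4.51 ± 0.13 without replicate 4. As for Sptan1 and Ppp1r9a, the lowest IP library was replicate 4.

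Actn2 was the scarcest of the cytoskeletal members. Its IP libraries held 34.7, 90.2, 95.6 and 64.2 CPM and its inputs 3.26, 4.00, 3.08 and 5.55 CPM, from 27 to 70 counted reads. Here replicate 1, not replicate 4, was the lowest IP. The difference was 4.17 ± 0.34 on the log2 scale, or 18.1-fold, rank 12, and 4.43 ± 0.39 without replicate 4.

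Mmp2, the metalloproteinase, ran the other way across libraries. Its IP libraries held 32.1, 40.8, 70.7 and 107 CPM, with the highest value in replicate 4, and its inputs 1.91, 2.85, 1.37 and 1.98 CPM, from 12 to 27 counted reads. The difference was 4.98 ± 0.42 on the log2 scale, or 31.6-fold, rank 2, and 4.56 ± 0.39 without replicate 4. All 5 members thus had IP values above every input value, which held for 11.3% of the 11204 genes in this comparison. The members were chosen on this contrast, so nothing is read from that count. The genes between Ppp1r9a and Limch1 in the order were Hmmr at 4.75, Mpdz at 4.49 and Mmp9 at 4.44. Between Limch1 and Actn2 came Akr1c18 at 4.31, Agbl1 at 4.29, Gm15816 at 4.23 and Gna14 at 4.22, and just after Actn2 came Syt2 at 4.05 and Sptbn1 at 4.00.

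**Figure D1:**
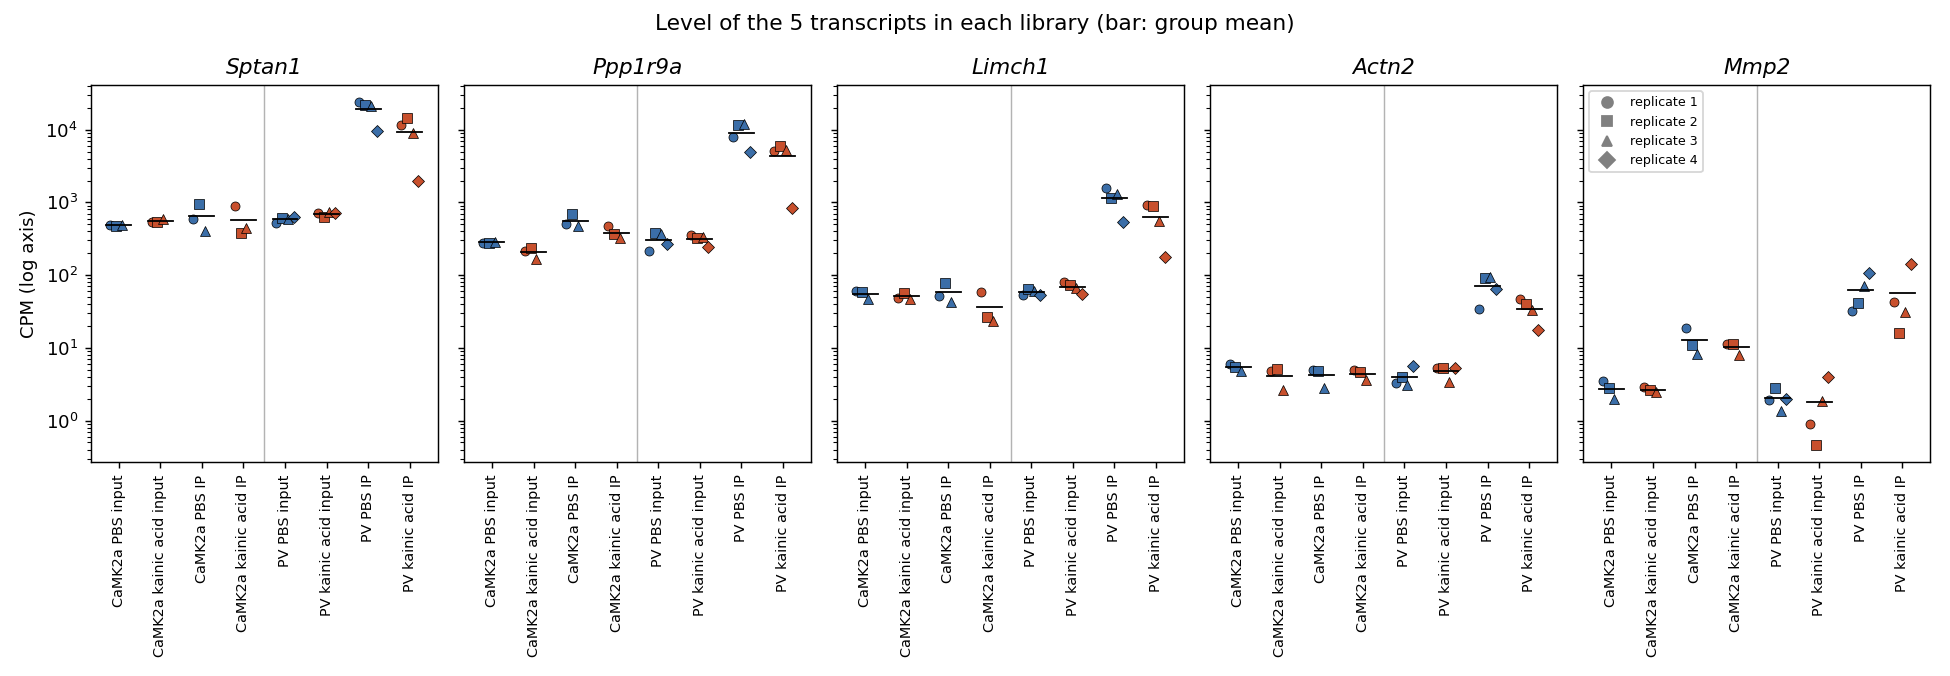
CPM (log axis) of each member in each library, by line, treatment and fraction; blue points are PBS, red points kainic acid, the marker shape is the replicate number and the bar is the group mean. All 5 members are highest in the PV IP, and replicate 4 (diamonds) is the lowest PV IP library after kainic acid for the 4 cytoskeletal members and the highest for Mmp2.

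After kainic acid the members were still far above input in the PV IP, with smaller fitted differences than after PBS for the 4 cytoskeletal genes. Sptan1 measured 11532, 14333, 9074 and 1972 CPM in the IP and 625 to 736 CPM in the inputs, a difference of 3.77 ± 0.43 on the log2 scale, or 13.6-fold. The lowest IP library, replicate 4, was still above the highest input. Ppp1r9a measured 5080, 6036, 5228 and 832 CPM in the IP and 247 to 353 CPM in the inputs, a difference of 3.82 ± 0.45, or 14.1-fold. For both genes replicate 4 was far below the next lowest IP library. Limch1 measured 908, 893, 562 and 175 CPM against 55.3 to 80.4 CPM, a difference of 3.25 ± 0.39, or 9.49-fold. Actn2 measured 46.3, 40.1, 33.5 and 17.7 CPM against 3.40 to 5.30 CPM, a difference of 2.87 ± 0.35, or 7.33-fold. None of these groups overlapped either, and replicate 4 was the lowest IP library for each of the 4 genes.

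Mmp2 had about the same fitted ratio to input after kainic acid as after PBS. It measured 42.7, 16.0, 31.3 and 141 CPM in the IP and 0.91, 0.47, 1.89 and 4.01 CPM in the inputs, where it had only 4 to 44 counted reads. Replicate 4 was the highest library in both fractions. The difference was 4.99 ± 0.73 on the log2 scale, or 31.9-fold, rank 1 of 11205 genes, where the other 4 members ranked 8 (Ppp1r9a), 9 (Sptan1), 22 (Limch1) and 38 (Actn2). It was 4.05 without the IP of replicate 4 and 5.80 without the input of replicate 4, and 4.83 ± 0.56 with replicate 4 left out of both. Groups that did not overlap, with the IP higher, were found for 8.67% of all genes in this comparison.

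Without replicate 4 the fitted differences of the cytoskeletal members were again smaller after kainic acid than after PBS. Sptan1 measured 4.12 ± 0.14 against 5.30 ± 0.08 on the log2 scale, Ppp1r9a 4.07 ± 0.09 against 5.04 ± 0.23, Limch1 3.47 ± 0.18 against 4.51 ± 0.13 and Actn2 3.15 ± 0.31 against 4.43 ± 0.39. Mmp2 measured 4.83 ± 0.56 against 4.56 ± 0.39. The test of this change is given with the kainic acid results.

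In the CaMK2a line the members divided into 3 patterns. Sptan1, Limch1 and Actn2 were near their input level, Ppp1r9a was moderately higher in the IP, and Mmp2 was clearly higher. After PBS, Sptan1 measured 583, 944 and 410 CPM in the IP and 482, 478 and 486 CPM in input, a difference of 0.44 ± 0.19 on the log2 scale with overlapping groups. Limch1 differed by 0.06 ± 0.16 and Actn2 by -0.35 ± 0.27, also with overlap. These 3 genes were therefore at most 1.36-fold above input there, against 18.1-fold or more in the PV line. The difference between the lines was not tested. Upper-quartile scaling, which puts the median of all genes at -0.13 here, turns the sign of Limch1 to -0.06.

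Ppp1r9a measured 503, 690 and 470 CPM in the CaMK2a IP after PBS and 280, 276 and 288 CPM in input, without overlap. The difference was 1.00 ± 0.11 on the log2 scale, rank 907 of 11190 genes. Mmp2 measured 19.0, 10.8 and 8.18 CPM in the IP and 3.49, 2.81 and 1.98 CPM in input, a difference of 2.20 ± 0.31, or 4.61-fold, rank 35. The groups did not overlap, and 33.3% of all genes had an IP group wholly above input in this comparison. After kainic acid Ppp1r9a differed by 0.88 ± 0.17 and Mmp2 by 1.91 ± 0.29, again without overlap, beside 29% of all genes. Sptan1 then differed by 0.02 ± 0.26, Limch1 by -0.52 ± 0.29 and Actn2 by 0.05 ± 0.34, and upper-quartile scaling (median of all genes -0.15) turns Sptan1 to -0.10 and Actn2 to -0.07. The value of Mmp2 after PBS was 1.77 without PBS IP replicate 1, its highest library.

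**Figure D2:**
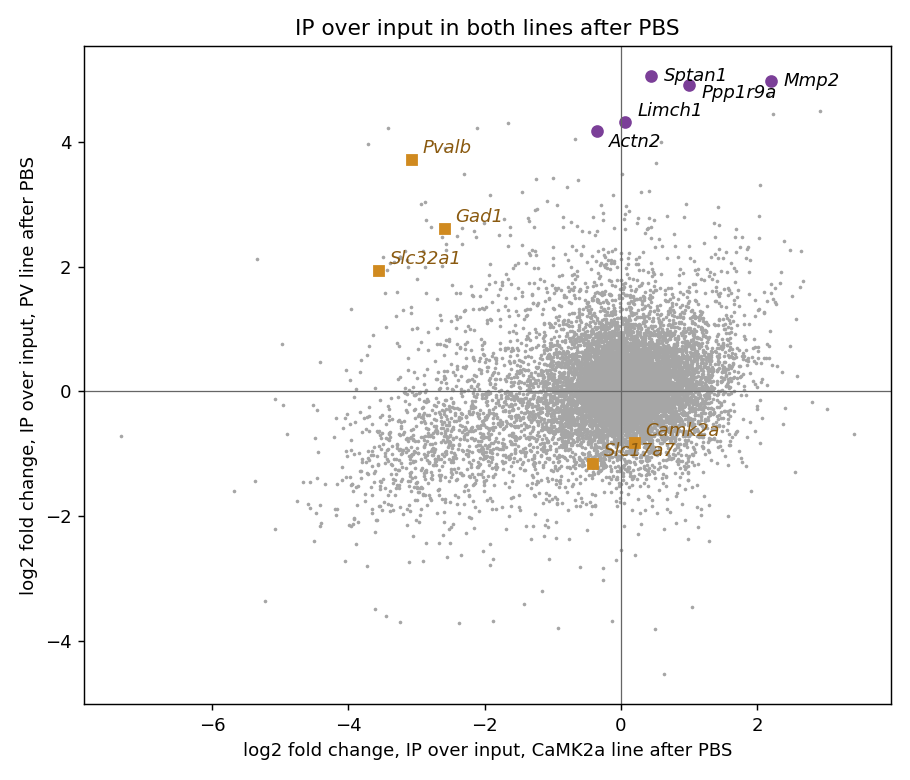
Log2 fold change of IP over input after PBS for 10950 genes, CaMK2a line on the horizontal axis and PV line on the vertical axis; purple circles are the 5 members and orange squares are markers of PV (Pvalb, Gad1, Slc32a1) and pyramidal cells (Camk2a, Slc17a7). The members lie at the top, at -0.35 to 2.20 on the CaMK2a axis, while the PV markers lie high on the PV axis and below -2 on the CaMK2a axis.

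Set beside markers of cell identity, the members differed from PV markers in the CaMK2a line. Pvalb, the calcium-binding protein that names PV cells, had a ratio of IP to input of 15.4 ± 8.35 (mean ± SD over 4 pools) in the PV line after PBS and of 0.120 ± 0.018 (3 pools) in the CaMK2a line. Gad1, which makes GABA, had ratios of 5.95 ± 0.326 and 0.166 ± 0.028, and the vesicular GABA transporter Slc32a1 of 3.79 ± 0.567 and 0.087 ± 0.021. Sptan1 had ratios of 33.3 ± 12.6 and 1.34 ± 0.577, Ppp1r9a of 29.6 ± 8.05 and 1.98 ± 0.46, Limch1 of 19.7 ± 7.94 and 1.04 ± 0.259, Actn2 of 19.0 ± 9.72 and 0.763 ± 0.147, and Mmp2 of 34.2 ± 21.6 and 4.47 ± 0.857. Pvalb, Gad1 and Slc32a1 were thus depleted from the CaMK2a IP in each of the 3 pools and no member was depleted to that degree in any. Camk2a itself had ratios of 0.549 ± 0.046 in the PV line and 1.13 ± 0.051 in the CaMK2a line.

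Within the PV line, replicate 4 stood differently for members and identity markers after the 2 treatments. After PBS its ratio of IP to input was the lowest for Sptan1 (15.6), Ppp1r9a (18.5) and Limch1 (10.3), and also for Pvalb (8.29 against 11.9 to 27.4), Gad1 (5.58 against 5.88 to 6.37) and Slc32a1 (3.03 against 3.77 to 4.39). The low Pvalb ratio went with a high input and not with a low IP. Replicate 4 held 172 CPM of Pvalb in the IP and 20.8 CPM in input, against 121 to 176 and 6.43 to 10.1 CPM in replicates 1 to 3. The summed CPM of the 11 PV markers was lowest in that IP library as well, 4513 in a range of 4513 to 6072. In replicate 4 after kainic acid the ratio of IP to input was 2.76 for Sptan1, 3.36 for Ppp1r9a, 3.17 for Limch1 and 3.34 for Actn2, against 12.3 to 22.9, 14.4 to 18.8, 8.39 to 12.3 and 7.66 to 9.85 in replicates 1 to 3. In the same pool Gad1 was at 7.45 against 4.81 to 5.03, Slc32a1 at 5.62 against 3.07 to 5.17 and Pvalb at 16.2 against 19.8 to 21.5. Pvalb itself was highest in both fractions of that pool, at 171 CPM in the IP and 10.6 CPM in input. Replicates 1 to 3 held 89.2 to 97.2 and 4.19 to 4.91 CPM. The summed CPM of the 11 PV markers was highest in that kainic acid IP library, 7226 in a range of 4933 to 7226. That of the 10 pyramidal markers was lowest, 3597 in a range of 3597 to 6925. Whether marker levels have a part in the members' values was not tested.

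**Figure D3:**
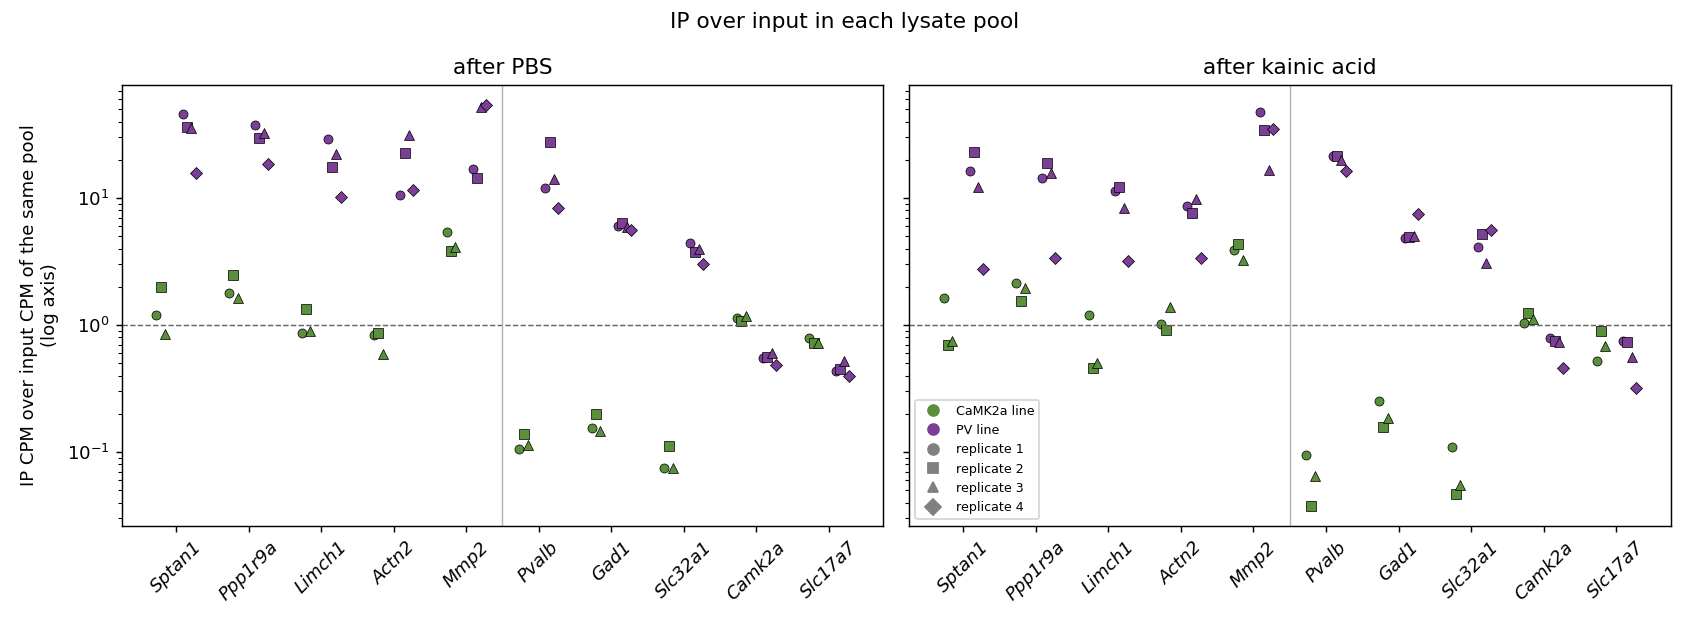
CPM of the IP over CPM of the input of the same lysate pool (log axis; the dashed line is 1) for the members and 5 marker genes, after PBS (left) and kainic acid (right); green is the CaMK2a line, purple the PV line, and the marker shape is the replicate number. In the PV line replicate 4 (diamonds) is the lowest for Sptan1, Ppp1r9a and Limch1 after both treatments, and for Gad1, Slc32a1 and Pvalb it is also the lowest after PBS. After kainic acid it is the highest for Gad1 and Slc32a1 and the lowest for Pvalb.

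The members took up a large share of the PV IP libraries. Sptan1 alone made up 1.89% ± 0.542 (SD, n = 4) of all counted reads in the PV IP after PBS and 0.848% ± 0.468 after kainic acid, against 0.06% ± 0.008 in the PV input after PBS and 0.066% ± 0.029 (n = 3) in the CaMK2a IP after PBS. The 5 members together made up 2.90% ± 0.773 of the PV IP after PBS. Per length, on the RPKM scale, Sptan1 reached 658 ± 182 in the PV IP after PBS, rank 4, 4, 5 and 9 among 13895 genes in the 4 libraries. Ppp1r9a reached 126 ± 37.6 RPKM, Limch1 33.4 ± 11.002, Actn2 6.72 ± 2.46 and Mmp2 5.77 ± 3.73. The order of the first 3 held in each of the 4 libraries, while Actn2 and Mmp2 overlapped. In the matched input the order was Sptan1 at 21.9 ± 2.94 RPKM, Ppp1r9a at 4.64 ± 1.14, Limch1 at 1.84 ± 0.157, Actn2 at 0.401 ± 0.154 and Mmp2 at 0.188 ± 0.057.

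Over all 8 groups the PV IP had the highest means for every member. For Sptan1 the PV IP after PBS (19256 ± 6466 CPM) and after kainic acid (9228 ± 5293 CPM) led, with overlapping libraries, and the other 6 groups had means between 482 and 697 CPM. Limch1 likewise had 1137 ± 433 and 635 ± 345 CPM in the 2 PV IP groups and means of 36.1 to 68.8 CPM elsewhere, and Actn2 71.2 ± 27.9 and 34.4 ± 12.3 CPM with means of 3.97 to 5.39 CPM elsewhere. Ppp1r9a had 9073 ± 3253 and 4294 ± 2346 CPM, then 554 ± 118 CPM in the CaMK2a IP after PBS, then 206 to 385 CPM. Mmp2 had 62.6 ± 33.9 and 57.7 ± 56.5 CPM in the PV IP, then 12.7 ± 5.67 and 10.2 ± 1.87 CPM in the CaMK2a IP, and means of at most 2.76 CPM in the 4 inputs. Its lowest PV IP library after kainic acid (16.0 CPM) was below its highest CaMK2a IP library after PBS (19.0 CPM).

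Across the 28 libraries Pearson r of log2 CPM was 0.95 to 0.99 for each pair of the 4 cytoskeletal members, and 0.69 to 0.78 between each of them and Mmp2. Spearman's rho was lower for the cytoskeletal pairs, 0.57 to 0.88, and overlapped that with Mmp2, 0.44 to 0.75. These values are a description: the libraries fall into the PV IP and the rest, and share lines and pools. Among 8077 other genes with a mean log2 CPM of at least 3, the other members included, Sptbn1, the beta chain that pairs with Sptan1, and Dst, which encodes the cytolinker dystonin, were among the 3 most alike for all 4 cytoskeletal members, with r between 0.95 and 0.99. For Mmp2 they were Vapb at 0.94, Parm1 at 0.93 and Etl4 at 0.92.

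The members differed in transcript length, and over all genes length had a weak rank correlation with the PV ratio of IP to input. Spearman's rho between listed length and the log2 ratio of IP to input in the PV line after PBS was 0.033 over 11204 genes, which are not independent replicates, and 0.17 in the CaMK2a line. Among the 2241 longest genes, from 5824 bases, 68 had a log2 ratio of at least 2 in the PV line after PBS. Shorter genes were not counted at this cutoff, so whether long genes are over-represented among high ratios was not tested. The median log2 ratio of these longest genes was 0.075. In the groups of shorter genes, from the shortest up, the median was 0.036, -0.016, 0.028 and -0.009.

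In the list of 21 spectrin, ankyrin and membrane scaffold genes, 18 were tested in the PV line after PBS, 10 were called higher and 3 lower, and the median log2 fold change was 0.79 against 0.02 over all genes tested, of which 10.6% were called higher. Among those called higher were Sptbn1 at 4.00 ± 0.18 (adjusted p = 1.26e-08) and the erythroid beta chain gene Sptb at 2.85 ± 0.20 (adjusted p = 4.05e-07). In the CaMK2a line after PBS Sptbn1 was at 0.60 ± 0.11 (adjusted p = 2.33e-04), the list counted 10 higher and 4 lower of 18, and its median was 0.25. There 32.6% of all genes were called higher and 31.6% lower.

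Among actin crosslinkers and caps the paralogs of Actn2 were higher in the PV IP after PBS as well, Actn4 at 2.97 ± 0.21 (adjusted p = 4.78e-07) and Actn1 at 2.32 ± 0.23 (adjusted p = 1.39e-05). The list's largest rise was that of Dbn1, the spine protein drebrin, at 3.48 ± 0.22 (adjusted p = 2.18e-07). Only 6 of 25 tested members of the list were called higher and 1 lower, and its median was -0.06. Over all genes 10.6% were called higher and 7.98% lower. Of 25 myosin and tropomyosin genes, 11 were called higher and 1 lower, with a median of 0.54. Myh9, a heavy chain of non-muscle myosin II, was at 3.15 ± 0.37 (adjusted p = 5.40e-05), and Tpm2 at 2.91 ± 0.33 (adjusted p = 3.57e-05).

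Ppp1r9b, which encodes spinophilin, the paralog of neurabin, was at 2.05 ± 0.18 (adjusted p = 4.64e-06) in the PV line after PBS. For the counts that follow, 10.6% of all genes were called higher and 7.98% lower. In its list of phosphatase 1 genes 4 of 19 were called higher and 2 lower, with a median of -0.02. Of 25 LIM domain genes 7 were called higher and 5 lower, with a median of -0.07, led by Lmo7 at 3.00 ± 0.32 (adjusted p = 1.99e-05) and Mical3 at 2.79 ± 0.20 (adjusted p = 4.78e-07). Around Mmp2, 2 of 18 metalloproteinase and inhibitor genes were called higher and 3 lower, with a median of -0.22. Mmp9, the other gelatinase, was at 4.44 ± 0.64 (adjusted p = 2.93e-04), with IP to input ratios of 7.75 to 594 over the 4 pools. The ratio of 594 rests on 1 counted read in input replicate 4, where the other PBS inputs held 5 to 23. Timp2 was at -0.19 ± 0.13 (adjusted p = 0.368) and Mmp14 at -1.44 ± 0.50 (adjusted p = 0.0593). Mmp14 passed with DESeq2, with the stricter filter, with the pool as a block and without replicate 4 of the IP.

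After kainic acid, of 18 scaffold genes in the PV line 8 were called higher and 1 lower, of 26 crosslinkers 5 and 0, of 25 myosins and tropomyosins 8 and 0, of 19 phosphatase 1 genes 2 and 1, of 26 LIM domain genes 5 and 2, and of 18 metalloproteinase genes 2 and 3, while 6.85% of all genes were called higher and 4.11% lower (767 and 460 genes, or 651 and 627 with upper-quartile scaling). In either direction 18.5% of genes were called after PBS and 11% after kainic acid. With the lysate pool as a block, since each input was part of an IP lysate, 3370 genes in place of 2077 were called after PBS and 2395 in place of 1227 after kainic acid. Without the block, 720 in place of 1227 were called when kainic acid input replicate 3 was left out, and leaving out kainic acid input replicate 1 also lowered the count by over 1.5 times.

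Mmp2 is widely used as a marker of mural cells and fibroblasts, so the 14 markers of those cells were set beside it. Their summed CPM was 68.0 to 121 in the PV IP after PBS and 170 to 214 in the matched input, and 87.6 to 111 and 196 to 257 after kainic acid. In the CaMK2a line it was 139 to 147 in the IP after PBS and 206 to 227 in input. The fibroblast gene Dcn alone held 111 to 119 CPM of that IP sum. Of the 14 markers 11 were called lower and 1 higher in the CaMK2a IP after PBS, with a median log2 fold change of -2.47. Over all genes 31.6% were called lower and 32.6% higher in that comparison. None of the 14 was at 0 in every library of a group. The sum was lower in each IP than in each matched input, while Mmp2 was higher in each IP. Whether mural cells or fibroblasts have a part in the Mmp2 values was not tested. In the PV IP after PBS 4 of the 14 were called lower and 1 higher, beside 7.98% and 10.6% of all genes. The higher one was the smooth muscle myosin Myh11 (2.65 ± 0.64, adjusted p = 0.0103), named after its value was seen. Dcn, the fibroblast proteoglycan decorin, had a ratio of 0.354 ± 0.194 in the PV line (4 pools) and 1.78 ± 0.105 in the CaMK2a line (3 pools) after PBS. Pdgfrb, the pericyte receptor, had a ratio of IP to input of 0.748 ± 0.42 (4 pools) in the PV line after PBS and Col1a1, a fibroblast collagen, of 1.05 ± 1.09. In the CaMK2a line after PBS their ratios were 0.088 ± 0.050 and 0.182 ± 0.098 (3 pools), where that of Dcn was above 1. Sums of the 10 endothelial markers (31.2 to 49.95 CPM in the IP, 74.0 to 87.5 in input) and of the 10 microglia markers (85.8 to 146 and 290 to 419 CPM) were also lower in the PV IP after PBS.

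Kainic acid was compared with PBS within each fraction, which asks whether the members respond to the seizure stimulus. The PV IP libraries of both treatments entered the choice of the members, so the PV IP test below is not independent of it.

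Ppp1r9a was the only member called, and it fell in both fractions of the CaMK2a line. In the CaMK2a inputs it went from 280, 276 and 288 CPM after PBS to 217, 235 and 166 CPM after kainic acid. The groups did not overlap, and the change was -0.45 ± 0.11 (adjusted p = 0.00363, edgeR quasi-likelihood test). In the CaMK2a IP it went from 503, 690 and 470 CPM to 468, 363 and 326 CPM, without overlap by a small margin, a change of -0.52 ± 0.17 (adjusted p = 0.0366). That call was lost without kainic acid IP replicate 3 (adjusted p = 0.141), PBS IP replicate 1 (0.0591) or PBS IP replicate 2 (0.148), while the call in input held without each library in turn. In the CaMK2a line 35.1% of all genes were called in the IP, 15.3% lower, and 35% in input, 15.7% lower, and 24% and 23.4% of all genes had a kainic acid group wholly below PBS. A count of 1 member in 5 is within this background. With upper-quartile scaling the genes called in the CaMK2a IP were 1674 higher and 2276 lower in place of 2111 and 1633.

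The other members did not pass in the CaMK2a line. Sptan1 was at 0.20 ± 0.09 in input (adjusted p = 0.0907), where the groups did not overlap (478 to 486 CPM after PBS and 540 to 586 CPM after kainic acid, as for 24.2% of all genes in that direction), and at -0.18 ± 0.34 in the IP (adjusted p = 0.723). It passed in input without kainic acid replicate 2 (0.24, adjusted p = 0.0352). Limch1 was at -0.67 ± 0.33 in the IP (adjusted p = 0.144) and passed without kainic acid IP replicate 1, the highest of that group at 58.4 CPM against 26.4 and 23.6 (-1.20, adjusted p = 0.00154). Actn2 was at 0.08 ± 0.31 and Mmp2 at -0.33 ± 0.30 in the IP (adjusted p = 0.869 and 0.431).

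In the PV IP the 4 cytoskeletal members were each about -1 on the log2 scale after kainic acid, and none was called in the fit to the 8 libraries without replicate numbers. Sptan1 was at -1.09 ± 0.40 (adjusted p = 0.165), Ppp1r9a at -1.11 ± 0.41 (0.166), Limch1 at -0.87 ± 0.38 (0.271), Actn2 at -1.08 ± 0.33 (0.079) and Mmp2 at -0.14 ± 0.52 (0.935), all by edgeR's quasi-likelihood test. Unadjusted, 4 of the 5 had p under 0.05, from 0.00469 for Actn2 to 0.0368 for Limch1, as had 15.9% of all genes. The members were chosen on the PV IP libraries of both treatments, which this comparison uses too, so nothing is read from that count. Here 4.85% of all genes were called, 4.05% higher and 0.801% lower. For Sptan1 the 2 groups overlapped only through replicate 4: replicates 1 to 3 held 21349 to 23972 CPM after PBS and 9074 to 14333 CPM after kainic acid, and replicate 4 held 9703 and 1972 CPM.

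Without replicate 4, Sptan1 fell by 0.97 on the log2 scale (SE 0.11, adjusted p = 4.16e-05), Ppp1r9a by 0.96 (SE 0.12, adjusted p = 8.00e-05) and Limch1 by 0.79 (SE 0.16, adjusted p = 0.00656), where 6.87% of 10988 genes were called and 1.62% were called lower. Actn2 was at -0.90 ± 0.33 (adjusted p = 0.129) and Mmp2 at -0.70 ± 0.38 (adjusted p = 0.337). This fit, too, uses PV IP libraries on which the members were chosen. The p-values of the members are not independent of that choice, and nothing is read from them. Pvalb also fell in these 6 libraries, by 0.66 (SE 0.18, adjusted p = 0.0435), while Gad1 was at 0.09 ± 0.10 (adjusted p = 0.671) and Slc32a1 at -0.10 ± 0.15 (adjusted p = 0.787). The pyramidal markers moved toward input in replicates 1 to 3. The IP to input ratio of Camk2a was 0.552 to 0.598 after PBS and 0.740 to 0.793 after kainic acid. That of Slc17a7 was 0.435 to 0.520 and 0.560 to 0.753. Whether pyramidal RNA in the IP has a part in the members' values was not tested. Leaving out only the kainic acid IP of replicate 4, Ppp1r9a passed (-0.77, adjusted p = 0.041).

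Actn2 in the PV IP lay near the threshold. It was called with DESeq2 (adjusted p = 0.0255), in a fit to all 4 PV groups (0.0328) and without PBS IP replicate 1, its lowest PBS library (-1.31, adjusted p = 0.0259). The authors' deposited table gives Actn2 a fold change of 0.472 and an FDR of 0.0378 for this comparison, and Sptan1 0.469 with an FDR of 0.119. That table calls no other member in the PV IP.

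**Figure D4:**
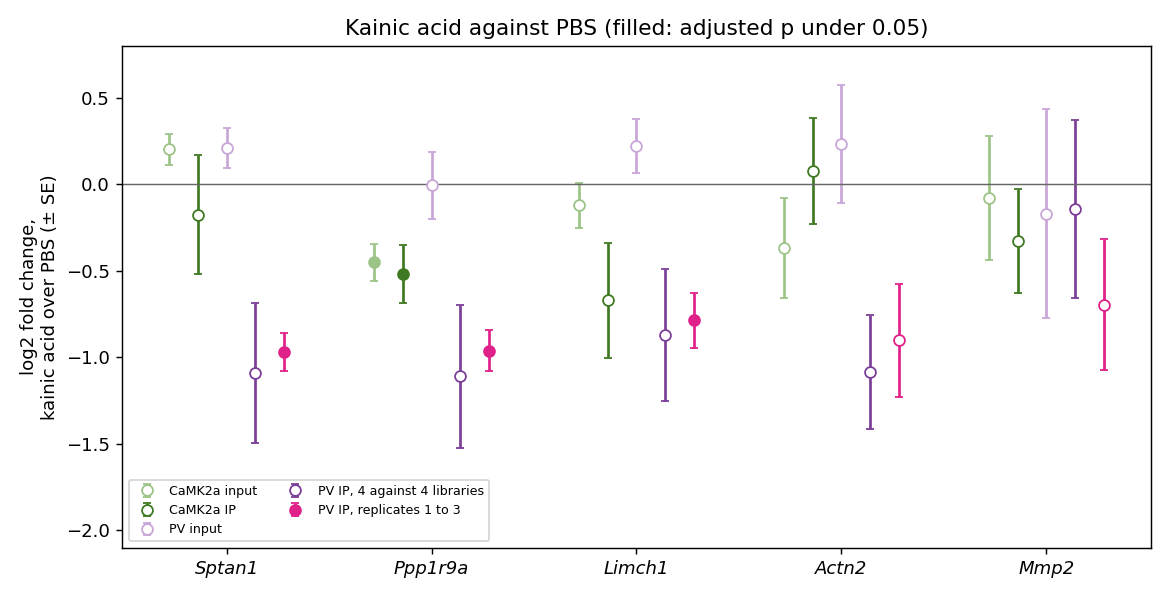
Log2 fold change of kainic acid over PBS with its SE for each member in the 4 fractions, and in the PV IP with replicates 1 to 3 alone; filled points have an adjusted p under 0.05 and open points do not. Ppp1r9a is filled in both CaMK2a fractions, and Sptan1, Ppp1r9a and Limch1 are filled in the PV IP with replicates 1 to 3 only. The PV IP points use libraries on which the members were chosen, so their p-values are not independent of that choice.

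In the PV inputs no member was called in the fit to the 8 libraries without replicate numbers. Sptan1 went from 525 to 622 CPM after PBS to 625 to 736 CPM after kainic acid, a change of 0.21 ± 0.12 (adjusted p = 0.286), and the groups did not overlap, as for 12.1% of all genes in the higher direction. Without replicate 4 it was called higher (0.23 ± 0.08, adjusted p = 0.0301), where 14.5% of all genes were called higher. Ppp1r9a was at -0.01 ± 0.19, Limch1 at 0.22 ± 0.16, Actn2 at 0.23 ± 0.34 and Mmp2 at -0.17 ± 0.60 (adjusted p from 0.422 to 0.99), beside 11.6% of all genes called and 8.21% called higher.

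Whether the IP responded otherwise than its input was fitted directly as a difference of effects. The differences with the PV IP use libraries on which the members were chosen. Their p-values are therefore not independent of that choice, and nothing is read from them. In the PV line the difference, IP minus input, was -1.27 ± 0.50 for Sptan1, -1.07 ± 0.53 for Ppp1r9a, -1.06 ± 0.48 for Limch1, -1.28 ± 0.47 for Actn2 and 0.04 ± 0.85 for Mmp2, each with an adjusted p of 1.00 by edgeR's quasi-likelihood test, where 3 of 11862 genes (0.0253%) were called. Without replicate 4 the difference for Sptan1 was -1.20 ± 0.15 (adjusted p = 0.00217), with 0.0854% of all genes called, and for the other 4 members the adjusted p was 0.104 or more. In the CaMK2a line no member was called (adjusted p from 0.733 to 0.95), beside 0.103% of all genes. The PV IP minus the CaMK2a IP gave -1.15 ± 0.51 for Actn2 (adjusted p = 0.786) and -0.91 ± 0.65 for Sptan1 (adjusted p = 0.926), and no member was called, beside 0.0934% of all genes. These differences share libraries with the comparisons above.

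Of the families around the members, the scaffold list had 1 of 18 tested genes called in the PV IP after kainic acid, Sptb, which fell by 1.45 (SE 0.26, adjusted p = 0.00254), and its median was -0.21 against -0.02 over all genes. Sptbn1 was at -0.71 ± 0.30 (adjusted p = 0.242) and, without replicate 4, fell by 0.50 (SE 0.12, adjusted p = 0.0224). Among 26 crosslinkers Dbn1 was the only one called, with a change of -0.98 ± 0.23 (adjusted p = 0.0169), lost without kainic acid IP replicate 3 or PBS IP replicate 1, while Actn1 was at 0.26 ± 0.30 (adjusted p = 0.744) and Actn4 at 0.06 ± 0.29 (adjusted p = 0.95). Ppp1r9b was at -0.95 ± 0.26 (adjusted p = 0.0497), a call that was lost when any 1 of 6 libraries, replicates 1 to 3 of either treatment, was left out. In the list of metalloproteinases and inhibitors 2 of 19 tested genes were called higher and 1 lower, beside 4.85% of all genes called. Adamts1, a secreted protease that cuts proteoglycans, rose by 2.88 (SE 0.29, adjusted p = 5.31e-06). It rose in the PV input as well, by 2.56 to 2.76 with each library left out in turn. The inhibitor gene Timp1 rose more in the PV IP, by 8.70 to 9.50 with each library left out in turn. In the same way it rose by 6.13 to 8.94 in the PV input. In the CaMK2a line it rose by 8.61 to 9.51 in the IP and by 6.52 to 10.1 in input. Its level after PBS is not given here, so only the direction of these changes is read.

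In the CaMK2a line more genes of the actin lists were called. In the IP 11 of 26 crosslinkers were called higher and 3 lower after kainic acid, among them Actn1 at 0.78 ± 0.12 (adjusted p = 8.17e-04) and Actn4 at 0.60 ± 0.09 (adjusted p = 6.07e-04), and in input 12 of 27 and 3, beside 19.8% and 19.3% of all genes called higher. Of 18 scaffold genes 5 were called higher and 4 lower in the IP, and Sptbn1 was at -0.12 ± 0.22 (adjusted p = 0.711). Ppp1r9b fell in the CaMK2a IP, at -0.39 ± 0.09 (adjusted p = 0.0071), and in input it was at 0.00 ± 0.10 (adjusted p = 0.993). In the PV inputs 6 of 26 crosslinkers were called higher and none lower, Actn1 among them at 0.87 ± 0.19 (adjusted p = 0.00995), which was lost in a fit to all 4 PV groups. Over all genes 8.21% were called higher in the PV inputs.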

How the data were processed

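RNA of IP and input was measured in 28 libraries, and groups follow the labels. Per the submitters' processing notes, reads were aligned to mm10 (GRCm38) with BWA and compared with edgeR; versions and strandedness are not given in the sources used here. Libraries were SPIA-amplified from 20 ng or 2.5 ng of RNA, per the labels' protocols, so counts are of amplified cDNA without molecular identifiers. The deposited counts are whole reads per gene, in 6 comparisons whose higher and lower genes were deposited apart and joined here. Of 189281 counts that 2 tables share, 0 differed, and the smallest row sum was 4. The deposited RPKM values were used to compare genes with each other. CPM were computed here. The authors' linear fold (a ratio), p-value and FDR columns, as deposited, are printed only as theirs.

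Tests were edgeR 4.0.16 quasi-likelihood tests in R 4.3.3 on counts, with TMM factors, filterByExpr (minimum count 10) and prior count 0.125. Genes were called at an adjusted p (Benjamini-Hochberg, all genes tested) under 0.05. Each SE is the absolute log2 fold change divided by the root of its F statistic. The procedure was tested on simulated data. Alternatives were other scalings and filters, DESeq2 1.42.0, replicate blocks, all groups of a line, PV replicates 1 to 3 and each library left out. Input and IP of 1 number share a lysate by the design text, and their deviations from the group means correlated at 0.039 to 0.36 in the PV line and 0.016 to 0.16 in the CaMK2a line.

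The members, gene lists and tests were chosen with earlier results of these data known. Named were the members, up to 3 called genes with the largest change per list, fixed paralogs and partners, and fixed markers. Replicates are separate pools of mice. Python 3.11.15 with pandas 2.3.3 and matplotlib 3.10.9 drew the figures.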

Additional observations from a re-analysis of the deposited data

Results flagged for a closer look

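Actn2 in the PV input after kainic acid had 1 library far from the others: replicate 3 held 3.40 CPM, from 27 counted reads, against 5.24 to 5.30 CPM in replicates 1, 2 and 4. It was the only one of 20 sets of 4 PV libraries, 5 members in 4 groups, in which the gap to the nearest library passed the 95% critical value of Dixon's test, and chance alone gives about 1 in 20. No difference of kainic acid effects passed the test for a member with all libraries.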

How the results depend on the processing

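No member's value changed sign while called, and of 870 recomputed member values 825 kept their sign. In IP against input, 267 values moved by less than the spread between pools and 3 by more, the latter being those of Mmp2 without 1 library: 1.77 in the CaMK2a line after PBS without PBS IP replicate 1, and in the PV line after kainic acid the 2 values already given. The main dependence is on PV replicate 4 and on the replicate block. The labels tie kainic acid and PBS libraries by number alone, and not every sample correlated best with its own (correlations of 0.041, 0.033, 0.051 and 0.30 in the PV IP, and of 0.10, 0.11, 0.11 and 0.49 in the PV input). With replicate number as a block, 4 members were called in the PV IP after kainic acid (Sptan1 -1.32, Ppp1r9a -1.35, Limch1 -1.02, Actn2 -1.08), where 8.09% of all genes were, and 1 in the PV input (Sptan1 0.21), where 30.7% were. With PV replicates 1 to 3 the counts were 3 and 1, and 1 for the PV difference of IP and input. DESeq2 and the fit to all 4 groups gave 1 each in the PV IP. The cause was not tested. Fits with the PV IP use libraries on which the members were chosen, so nothing is read from the number of members called there.

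Counts of all genes called moved by over 1.5 times as follows. In the PV IP after kainic acid 539 became 871 with DESeq2, 899 with the replicate block and 1061 in the fit to all 4 groups. In the PV input 1289 became 3425 with the block, 817 in the fit to all 4 groups and 2758 with replicates 1 to 3. The difference of IP and input went from 12 to 83 (DESeq2) and 57 (block) in the CaMK2a line, and from 3 to 7, 9 and 10 (replicates 1 to 3) in the PV line. PV IP minus CaMK2a IP went from 11 to 43, 17 and 70. IP against input in the PV line went from 2077 to 3370 after PBS and from 1227 to 2395 after kainic acid with the pool as a block. With upper-quartile factors the share of calls that were higher went from 56.4% to 42.4% for kainic acid in the CaMK2a IP and from 62.5% to 50.9% for IP against input in the PV line after kainic acid, and the median of all genes moved to -0.13 and -0.15 for IP against input in the CaMK2a line after PBS and kainic acid.

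Leaving out 1 library at a time, genes called after kainic acid ranged from 2480 to 4242 in the CaMK2a IP (the lowest without PBS IP replicate 3, and also over 1.5 times below the count with all libraries without PBS IP replicate 1), and members called from 0 to 2 there, from 1 to 2 in the CaMK2a input and from 0 to 1 in the PV IP. Members called changed without the libraries named beside Ppp1r9a, Limch1, Sptan1 and Actn2 above. The differences of effects ranged from 5 to 63 genes (CaMK2a IP minus input, highest without kainic acid IP replicate 1) and from 2 to 24 (PV IP minus CaMK2a IP, lowest without CaMK2a PBS IP replicate 2 and highest without PV kainic acid IP replicate 4), and IP against input in the PV line after kainic acid from 720 to 1363. Where a group was left with 2 libraries the spread was pooled over the groups. Mmp2 had 4 to 44 counted reads in the PV inputs and 170 to 2336 in the PV IP libraries.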
